A study of Mus musculus with 4 samples.

Results

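Genes commonly used as markers of T cells, natural killer (NK) cells and their killing machinery were followed in R848-treated leukaemic spleen cells of the mouse: Cd3g, Trac, Trbc1, Gzma, Gzmb, Prf1, Nkg7, Klrd1, Il2rb and Xcl1. They were chosen by name, all 10 were found by symbol among 28074 gene symbols, and 8 of them averaged 1 FPKM or more across the 4 samples and were among the 12612 genes tested. FPKM is the name the authors gave to their length-scaled expression value. The values hold no read counts, and the depth of each sample is unknown. RNA sequencing compared cells treated with 10 µg/ml R848 for 3 days (n = 2) with cells given the same volume of vehicle (control, n = 2). Cells of both mice, 4050 and 4182, were divided between the treatments, so each mouse gave 1 R848 and 1 control sample. Both groups carried the genotype that the labels write as Dnmt3afl/fl, Flt3ITD/ITD, Mx1Cre and elsewhere as Dnmt3a+/-Flt3ITD, a conflict that was not resolved here. Floxed Dnmt3a is recombined by a Cre under the interferon-inducible Mx1 promoter, and Flt3ITD is an activating duplication in a receptor kinase of blood progenitors. All samples were thawed spleen cells after lysis of red blood cells, grown in medium with SCF, IL6 and IL3, and the labels name no sort for leukaemic cells. R848 (resiquimod) is a small molecule that activates TLR7 and TLR8, receptors for RNA in endosomes.

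Cytotoxic lymphocytes kill by releasing perforin, a pore-forming protein, and granzymes, serine proteases that enter the target cell, from secretory granules. T cells recognise targets through the T cell receptor, whose alpha and beta chains end in constant regions encoded by Trac and Trbc1 or Trbc2 and signal through the CD3 chains, among them CD3 gamma from Cd3g. NK cells have no such receptor and use others, including heterodimers of CD94 (Klrd1) with NKG2 chains, and both cell types respond to interleukins 2 and 15 through the beta chain encoded by Il2rb. XCL1, a chemokine of both cell types, attracts dendritic cells that carry its receptor XCR1.

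The results turn on the T cell receptor genes, and for Trbc1 the sequence itself limits the measurement. In the GENCODE M21 transcripts of GRCm38 the Trbc1 constant region (512 bases) and that of Trbc2 were identical over their first 259 bases, longer than a read of 150 nucleotides, and at 95.3% of 515 aligned positions overall. The stretch from base 251 to base 370 of both transcripts (both on the plus strand of chromosome 6) is shown with the 1 base that differs in capitals.
Trbc1: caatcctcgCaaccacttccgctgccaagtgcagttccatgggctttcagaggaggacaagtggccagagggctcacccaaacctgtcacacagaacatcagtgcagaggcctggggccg
Trbc2: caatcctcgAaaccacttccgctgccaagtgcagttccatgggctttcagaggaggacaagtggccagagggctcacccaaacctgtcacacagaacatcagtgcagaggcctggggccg
How reads were divided between the 2 genes is therefore uncertain, and Trbc2 is given beside Trbc1.

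With R848, transcripts of 3 genes of the T cell receptor complex, Cd3g, Trac and Trbc1, were detected at a low level, while the controls held little or none of them. Cd3g (chromosome 9, 44969572 to 44980431) was at 2.15 and 3.49 FPKM in the R848 samples of mice 4050 and 4182, against 0 and 0.272 FPKM in their controls. Trac (chromosome 14, 54220521 to 54224206) was at 2.51 and 3.40 FPKM with R848, against 0.579 and 0 FPKM in control. Trbc1 (chromosome 6, 41538218 to 41539881) was at 2.62 and 3.99 FPKM with R848, against 0 and 0.206 FPKM in control. For all 3 genes both R848 samples lay above both controls, and the R848 sample of mouse 4182 was the highest. The differences of log2(FPKM + 1) were 1.74 for Cd3g (SE 0.29), 1.64 for Trac (SE 0.30) and 1.95 for Trbc1 (SE 0.27). All 3 rose by limma across all genes, with adjusted p of 0.0327 for Cd3g, 0.0478 for Trac and 0.0194 for Trbc1, and with the mouse as a block of 0.00108, 0.00408 and 4.4e-04. These 3 genes passed the filter only through their R848 values and so had to differ. In the fit with no filter none of them passed (limma adjusted p = 0.242 for Cd3g, 0.297 for Trac and 0.190 for Trbc1). Trbc2 was at 3.55 and 8.53 FPKM with R848 against 0.834 and 1.38 FPKM in control, a log2 difference of 1.66 that passed limma only with the mouse as a block (adjusted p = 0.0890, and 0.00161 with the block). In these unsorted cells a change in the number of cells of a type and a change in RNA per cell cannot be told apart.

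**Figure D1:**
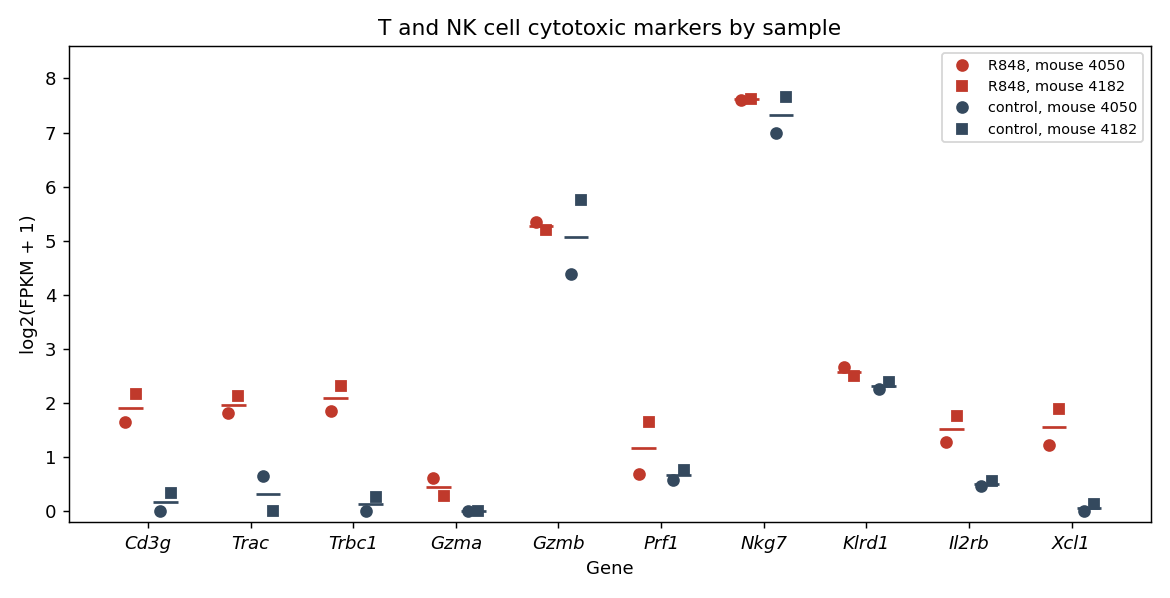
Level of each of the 10 genes on the log2(FPKM + 1) scale in each sample, R848 in red and control in dark blue, with circles for mouse 4050, squares for mouse 4182 and a bar at the mean of each group. Cd3g, Trac, Trbc1, Il2rb and Xcl1 are separated between the groups at low levels, while Nkg7 and Gzmb are high in all 4 samples.

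In all, 3 of the 8 tested genes were called higher and 0 lower, where 1.47% of all 12612 genes were called higher and 0.381% lower. Blocking by mouse, 5 of the 8 were called higher, adding Il2rb and Xcl1, where 3.4% of all genes were. These counts cannot be read as a result about the list, because Cd3g, Trac, Trbc1, Il2rb and Xcl1 passed the filter only through their R848 values and so had to differ. Over all 10 genes with no filter, 7 had both R848 values above both controls, against 12.8% of the 21710 genes detected in any sample. Of the 10, 8 were higher in both mice. No share over all genes was computed for that count or for the same count in the marker lists below, so it only describes the values. The median log2 difference was 1.25 over the 8 tested genes, which carries the same limit from the filter, and -0.08 over all genes tested.

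The T cell receptor calls depended on the scaling and on single samples. Without the block, 0 of the 8 genes passed after quantile normalization (0.618% of all genes were called higher) and 0 after median log ratio scaling (0.722%). After quantile normalization the adjusted p was 0.0899 for Cd3g, 0.119 for Trac and 0.0685 for Trbc1, and after median log ratio scaling 0.0932, 0.114 and 0.0674, whereas with the block all 3 passed under both scalings (between 0.00396 and 0.0339). With the block 4 of the 8 genes passed under each scaling, where 2.68% (quantile) and 3.2% (median log ratio) of all genes were called higher. Without the R848 sample of mouse 4182 the log2 differences were 1.48 for Cd3g, 1.48 for Trac and 1.72 for Trbc1 and none passed (adjusted p = 0.285, 0.395 and 0.203), and none passed without that of mouse 4050 (0.0952, 0.183 and 0.0699). Without the control of mouse 4182 Trac did not pass (0.0552). The sizes rest on the pseudocount, as the controls were near 0: with 0.1 in place of 1 the log2 differences were 3.88 for Cd3g, 3.53 for Trac and 4.25 for Trbc1, and Cd3g and Trac did not pass (adjusted p = 0.0674 and 0.140). Those of Xcl1 and Il2rb were then 3.82 and 1.89.

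The other CD3 genes gave different values. Cd3d, which encodes CD3 delta and starts 1355 bases from Cd3g on the opposite strand, was at 1.71 and 2.04 FPKM with R848 and at 1.38 and 2.41 FPKM in control (log2 difference 0.01, limma adjusted p = 0.994). Cd3e, which encodes CD3 epsilon, a defining T cell marker, was at 0.0677 and 0.219 FPKM with R848 and at 0.0309 and 0.0597 FPKM in control, and was not tested. Cd3d thus overlapped between the groups and Cd3e stayed near 0 in every sample. The constant regions of the gamma chain showed another pattern. Tcrg-C1 was at 147 and 151 FPKM with R848 and at 130 and 336 FPKM in control, far above the alpha and beta constant regions in every sample. Tcrg-C2 was at 1.29 and 4.73 FPKM with R848 and at 3.69 and 52.6 FPKM in control, a log2 difference of -2.13 (adjusted p = 0.488, and 0.00427 with the block). It was not called with the block after quantile normalization (0.0571). The controls set its size, since the log2 difference was -0.37 without the control of mouse 4182 (adjusted p = 1.000) and -3.89 without that of mouse 4050 (7.4e-04). Tcrg-C1 and Tcrg-C2 are similar copies whose reads may be shared.

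The granule proteins split into a pair that was abundant everywhere and a pair that was scarce. Nkg7, a granule membrane protein (chromosome 7, 43437073 to 43438249), was at 193 and 197 FPKM with R848 and at 126 and 201 FPKM in control. Gzmb, granzyme B (chromosome 14, 56258838 to 56262260), was at 39.9 and 35.8 FPKM with R848 and at 19.9 and 52.7 FPKM in control. For both genes the R848 values lay between those of the 2 controls, so the groups overlapped. Neither passed limma. The log2 difference was 0.29 for Nkg7 (SE 0.23, adjusted p = 0.707) and 0.21 for Gzmb (SE 0.39, adjusted p = 0.900), and the control of mouse 4050 was the low value for both. Without that control the differences turned to -0.04 for Nkg7 and -0.47 for Gzmb (adjusted p = 0.967 and 0.457).

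Perforin and granzyme A transcripts were scarce in both groups. Prf1, which encodes perforin (chromosome 10, 61297833 to 61304680), was at 0.620 and 2.14 FPKM with R848 and at 0.504 and 0.706 FPKM in control, so the R848 sample of mouse 4182 alone stood higher. Its mean of 0.992 FPKM lay just under the filter, with Xcl1 at 1.05 the gene just inside it. Gzma, granzyme A (chromosome 13, 113093825 to 113100981), was at 0.532 and 0.216 FPKM with R848 and listed at 0 in both controls. In the fit with no filter their log2 differences were 0.49 for Prf1 and 0.45 for Gzma (limma adjusted p = 0.764 and 0.443). No gene passed in that fit of 21710 genes, where 1880 had an unadjusted p under 0.05. Gzma was among those and Prf1 was not.

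The receptors and the chemokine lay between these patterns. Klrd1 (chromosome 6, 129591782 to 129598775) was at 5.37 and 4.64 FPKM with R848 and at 3.79 and 4.23 FPKM in control. The groups did not overlap, but the log2 difference of 0.26 (SE 0.21) did not pass limma (adjusted p = 0.719). Il2rb (chromosome 15, 78479256 to 78495271) was at 1.43 and 2.41 FPKM with R848 against 0.388 and 0.467 FPKM in control, a log2 difference of 1.01 (SE 0.27). It passed limma only with the mouse as a block (adjusted p = 0.166, and 0.0457 with the block), and not with the block after quantile normalization or median log ratio scaling (0.0869 and 0.0712). Xcl1 (chromosome 1, 164931644 to 164935527) was at 1.35 and 2.73 FPKM with R848, against 0 and 0.105 FPKM in control. Its log2 difference of 1.49 (SE 0.30) also passed only with the block (adjusted p = 0.0674, and 0.00499 with the block). There it passed after both scalings too (0.0289 and 0.0213). Il2rb and Xcl1 passed the filter only through their R848 values and so had to differ. In the fit with no filter neither passed (limma adjusted p = 0.362 for Il2rb and 0.297 for Xcl1). In every sample Nkg7 had the highest level of the 10 genes, Gzmb the next and Klrd1 the third. The 3 T cell receptor genes overlapped one another in the R848 samples.

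**Figure D2:**
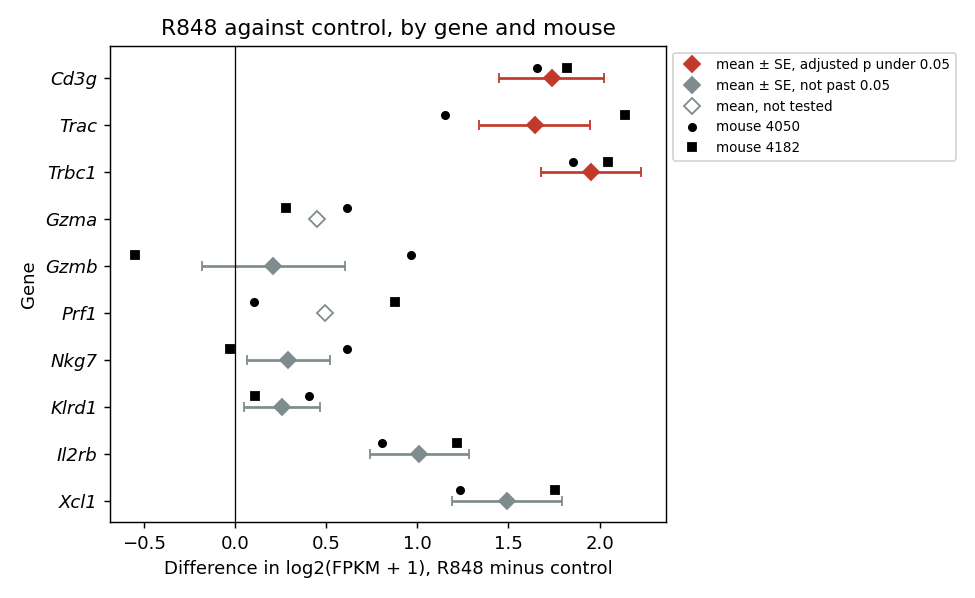
Difference of log2(FPKM + 1), R848 minus control, for each gene, with the mean and its limma SE as diamonds (red where the adjusted p was under 0.05, open where the gene was not tested) and the difference in each mouse as small black symbols. The 3 T cell receptor genes lie between 1.64 and 1.95, and Gzmb and Nkg7 are the genes whose mice lie on opposite sides of 0.

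The differences within the mice separated the same genes. Trac differed by 1.15 in mouse 4050 and by 2.14 in mouse 4182, Trbc1 by 1.86 and 2.05 and Cd3g by 1.66 and 1.82. Gzmb was 0.97 higher with R848 in mouse 4050 and differed by -0.55 in mouse 4182. In the R848 samples 7 of the 10 genes were higher in mouse 4182 than in mouse 4050, the exceptions being Gzma, Gzmb and Klrd1.

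Promoters were examined for the tested genes with the largest log2 differences that have an entry in the RefSeq promoter table (build GRCm38.p6), Cd3g and Xcl1, and for the 2 abundant genes, Gzmb and Nkg7, chosen for contrast after their values were seen. The table matched 6 of the 10 genes (these 4, Prf1 and Gzma). Each sequence runs from 250 bases before to 50 bases after the transcription start, 5′ to 3′ on the gene's strand. Capitals mark matches, on either strand, to 5 motifs: the interferon-gamma element GAS (TTCNNNGAA), the core of the interferon element ISRE (GAAANNGAA), an ETS core (AGGAAG), a RUNX core (TGTGGT) and a TATA box (TATAAA).
Cd3g (chr9:44980382-44980681, minus strand): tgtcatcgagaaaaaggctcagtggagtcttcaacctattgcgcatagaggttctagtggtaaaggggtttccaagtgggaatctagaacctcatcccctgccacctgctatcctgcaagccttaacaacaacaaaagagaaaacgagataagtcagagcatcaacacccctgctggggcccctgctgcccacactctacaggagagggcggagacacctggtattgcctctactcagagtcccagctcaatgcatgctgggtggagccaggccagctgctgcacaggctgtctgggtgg
Xcl1 (chr1:164935473-164935772, minus strand): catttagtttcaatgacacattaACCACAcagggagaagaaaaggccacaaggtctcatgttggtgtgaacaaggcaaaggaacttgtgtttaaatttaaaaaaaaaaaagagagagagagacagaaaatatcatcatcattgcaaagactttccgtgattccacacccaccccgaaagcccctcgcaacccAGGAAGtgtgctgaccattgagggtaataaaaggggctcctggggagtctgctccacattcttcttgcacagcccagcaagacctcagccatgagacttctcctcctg
Gzmb (chr14:56262285-56262584, minus strand): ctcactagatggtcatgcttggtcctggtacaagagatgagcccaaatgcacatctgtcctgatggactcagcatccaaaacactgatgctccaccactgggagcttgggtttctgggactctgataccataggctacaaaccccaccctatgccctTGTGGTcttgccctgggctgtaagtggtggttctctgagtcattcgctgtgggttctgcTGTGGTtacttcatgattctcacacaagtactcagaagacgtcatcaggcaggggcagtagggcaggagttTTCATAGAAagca
Nkg7 (chr7:43436888-43437187, plus strand): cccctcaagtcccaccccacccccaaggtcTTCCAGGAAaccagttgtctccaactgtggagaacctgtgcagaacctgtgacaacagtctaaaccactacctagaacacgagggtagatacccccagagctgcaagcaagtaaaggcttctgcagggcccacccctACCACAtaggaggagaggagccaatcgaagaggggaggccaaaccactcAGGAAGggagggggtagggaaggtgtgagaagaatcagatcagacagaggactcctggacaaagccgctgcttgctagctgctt
The Cd3g window held none of the 5 motifs. The Xcl1 window held 1 RUNX core at position -227 and 1 ETS core at -58, counted from the start and by the match's first base. Gzmb held 2 RUNX cores (-93 and -34) and 1 GAS (38), and Nkg7 held 1 GAS (-220), 1 RUNX core (-83) and 1 ETS core (-34). Matches did not overlap in these 4 windows. Of the 32851 promoters in the table, 8.3% held the GAS, 8.56% the ISRE core, 35.4% the ETS core, 16.8% the RUNX core and 13.6% the TATA box, so single matches are common.

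Other genes of the cytotoxic programme were taken from 11 lists of 125 genes, of which 124 were found and 78 tested. Of these 78, 4 rose and 0 fell, against 1.47% of all genes called higher. With the mouse as a block 13 rose and 2 fell (Tcrg-C2 and Cd244), against 3.4% and 1.9% of all genes. Of the 13, Cd2, Ctla4, Ifng and Ikzf3 passed the filter only through their R848 samples and so had to differ, and of the 4 called without the block this holds for Ifng. Ifng, the interferon of activated T and NK cells, was at 4.39 and 15.8 FPKM with R848, against 0 and 0.0364 FPKM in control (log2 difference 3.22, adjusted p = 0.0225). Ccl5, a T cell chemokine that other cells also make, was at 24.3 and 46.6 FPKM with R848 against 7.70 and 10.2 FPKM in control (1.82, adjusted p = 0.0340). Slamf7, a receptor of NK cells and other leukocytes, was at 9.56 and 20.4 FPKM with R848 against 3.18 and 3.39 FPKM in control (1.81, adjusted p = 0.0436). Serpinb9, an intracellular inhibitor of granzyme B, was at 9.13 and 9.02 FPKM with R848 against 3.22 and 1.94 FPKM in control (1.52, adjusted p = 0.0271). All 4 lost their calls under both scalings without the block and kept them with it. Without the R848 sample of mouse 4182 none of the 4 passed (adjusted p between 0.0701 and 0.237), and without that of mouse 4050 Serpinb9 did not (0.183). With a variance prior without a trend Ccl5 and Slamf7 did not pass (0.0565 and 0.0641). With a pseudocount of 0.1 the log2 difference of Ifng was 6.18. The list of NK cell receptors, from which Slamf7 came, had a median log2 difference of 0.18 over 10 tested genes. In it 13 of 24 genes were below 1 FPKM in every sample. Cd244, another receptor on that list, was at 7.82 and 5.62 FPKM with R848 against 12.6 and 18.0 FPKM in control. Its log2 difference was -1.07 (limma adjusted p = 0.101, and 0.0196 with the block).

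Without the block the remaining lists had no called gene. Among 13 tested T cell coreceptors and signalling proteins (median 0.39), Ctla4, a checkpoint receptor that passed the filter only through R848, and Fyb, an adaptor, had the smallest p, with log2 differences of 1.25 and 0.85 (adjusted p = 0.0624 and 0.0796, and 0.0127 and 0.00558 with the block). T cell identity factors had a median of -0.55 over 5 tested genes. Runx3, a transcription factor, was at -0.55 and Il7r, the interleukin 7 receptor, at -0.76 (adjusted p = 0.337 and 0.373). Of 8 further granzymes 6 were below 1 FPKM in every sample, and Gzmm, which alone was tested, was at 0.14 (adjusted p = 0.904). The 13 genes of granule biogenesis and release were expressed in both groups, with a median of 0.20, and their smallest p belonged to Srgn, the granule proteoglycan serglycin (0.41, adjusted p = 0.365), and Calr, calreticulin (0.50, adjusted p = 0.400). Among 6 tested transcription factors of cytotoxic lymphocytes (median 0.03), Ikzf3 was at 1.20 and Nfil3 at -0.58 (adjusted p = 0.107 and 0.179), and Ikzf3 passed with the block (0.0224) but not with the block after quantile normalization or median log ratio scaling (0.0711 and 0.0551). Xcr1, the receptor of XCL1, was below 1 FPKM in all 4 samples, and the tested genes of the dendritic cells that carry it were Wdfy4 (-0.21) and Batf3 (0.11), with adjusted p of 0.754 and 0.945. In the interleukin 2 and 15 receptor system (13 tested, median -0.12), Il21r and Il12rb1 were at 1.02 and 1.10 (adjusted p = 0.0905 and 0.124) and passed with the block (0.0208 and 0.0132).

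**Figure D3:**
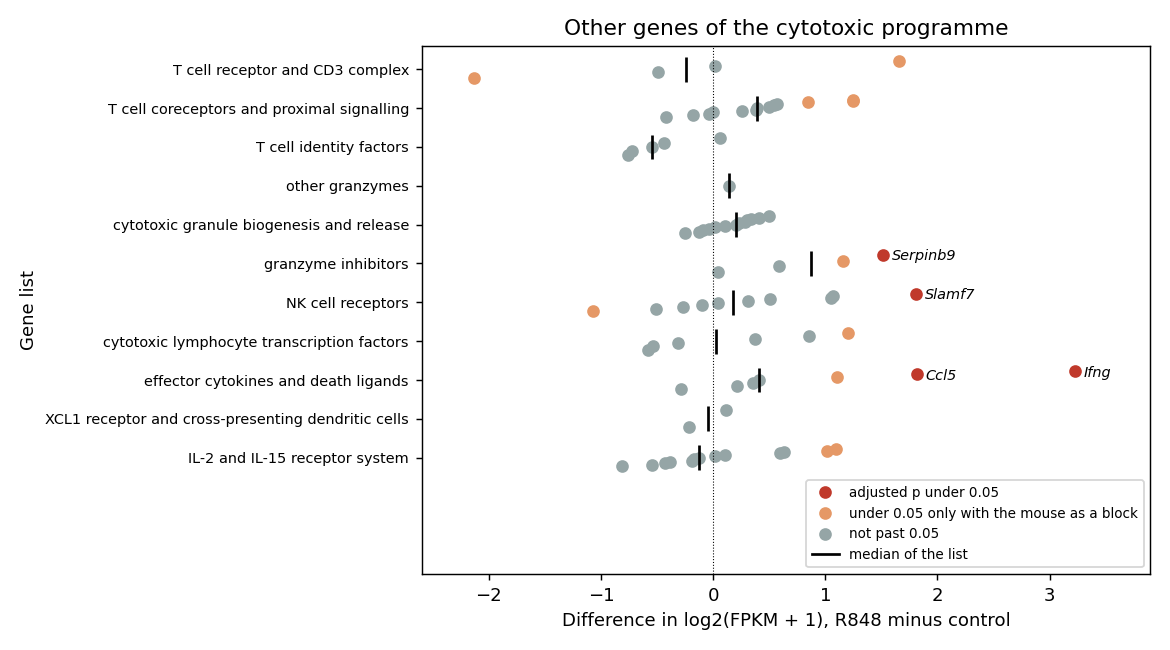
Difference of log2(FPKM + 1), R848 minus control, for each tested gene of 11 lists, with red points past an adjusted p of 0.05, orange points past it only with the mouse as a block, grey points past neither and a bar at the median of the list. Serpinb9, Slamf7, Ccl5 and Ifng are the 4 genes called without the block.

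The names of the cell types were checked against defining markers, and the data go against them in part. Of 8 NK cell markers, Ncr1, Klrb1c, Eomes and Klre1 were below 1 FPKM in every sample. The others, Klrd1, Il2rb, Klrk1 and Txk, were not. Klrk1 was at 3.25 and 5.44 FPKM with R848 and at 1.93 and 1.16 FPKM in control (limma adjusted p = 0.177). Txk was at 2.72 and 2.02 FPKM with R848 and at 1.84 and 2.83 FPKM in control. The 8 markers summed to 13.4 and 15.5 FPKM with R848 and to 8.25 and 9.10 FPKM in control. Ncr1, the NK receptor NKp46, was at 0 and 0.0716 FPKM with R848 and listed at 0 in both controls, and Klrb1c (NK1.1) was at 0 and 0.139 FPKM with R848 and at 0 and 0.173 FPKM in control. Of 12 T cell markers, Cd3e, Cd4, Cd5 and Bcl11b were below 1 FPKM in every sample. Cd28 was lower in both mice, at 1.11 and 1.72 FPKM with R848 and at 2.07 and 2.36 FPKM in control. Cd8a was at 1.57 and 2.50 FPKM with R848 and at 1.05 and 1.58 FPKM in control. Cd8a, Cd3d, Cd5 and Bcl11b overlapped between the groups, while Cd8b1, Cd4 and Cd3e had both R848 values above both controls. The T cell list summed to 17.3 and 28.6 FPKM with R848 and to 6.98 and 9.97 FPKM in control. Its 9 genes other than Cd3g, Trac and Trbc1 summed to 10.0 and 17.7 FPKM with R848 and 6.40 and 9.49 FPKM in control. Trbc2, whose reads cannot be divided with certainty from those of Trbc1, is among the 9. It was at 3.55 and 8.53 FPKM with R848 against 0.834 and 1.38 FPKM in control, so the sum of the 9 is not independent of Trbc1. In every sample Ncr1, Klrb1c and Cd3e were near 0, while Klrd1, Klrk1, Txk, Cd3d, Cd8a and Cd28 were above 1 FPKM. Tcrg-C1 was at 130 FPKM or more in every sample. Nkg7 and Gzmb were abundant in these same samples, and which cells held their transcripts was not tested.

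Markers of other cells moved with the T cell receptor genes or lay beside the granule genes. All 5 B cell markers followed here were higher in both mice, with summed levels of 37.1 and 40.1 FPKM with R848 against 14.0 and 16.1 FPKM in control, and Cd79a and Ms4a1 rose (limma adjusted p = 0.0194 and 0.00553). Both passed the filter only through their R848 samples, while Cd79b, with control values above 1 FPKM, passed only with the block (0.0961, and 0.0138 with the block). Plasma cell markers summed to 1285 and 1129 FPKM with R848 against 536 and 686 FPKM in control, with 5 of 6 higher in both mice. Igkc, the constant region of the kappa light chain, was at 601 and 507 FPKM with R848 against 4.90 and 2.74 FPKM in control (log2 difference 6.88, adjusted p = 1.2e-04). Igj, the joining chain of polymeric antibodies, and Mzb1, a protein of antibody secretion, differed by 4.76 and 4.05 (adjusted p = 1.8e-04 and 4.7e-04) and passed the filter only through their R848 samples. Of 6 monocyte and macrophage markers, Emr1, an adhesion receptor of macrophages, was at 156 and 154 FPKM with R848 against 52.6 and 61.5 FPKM in control (log2 difference 1.43, adjusted p = 0.00709). Without the R848 sample of either mouse Cd79a, Ms4a1 and Emr1 did not pass (adjusted p between 0.0512 and 0.137). The part of these cells in the T cell receptor result was not tested. Basophil and mast cell markers summed to 2894 and 1718 FPKM with R848 and to 1910 and 1825 FPKM in control, with 0 of 8 tested genes called and 7 of 9 higher in both mice. With the block 2 were called higher, Fcer1a and Prss34 (0.00490 and 0.00208). Mcpt8, a basophil protease, was at 1703 and 1027 FPKM with R848 and at 1232 and 1329 FPKM in control, and Mcpt4 alone of this list was below 1 FPKM in every sample. Granzyme B is also known in mouse mast cells. Plasmacytoid dendritic cells are another known source of granzyme B, chiefly in humans, and their markers summed to 11.4 and 16.8 FPKM with R848 and to 20.2 and 38.6 FPKM in control, with Siglech, Ccr9 and Klk1 below 1 FPKM in every sample and Cox6a2 called lower with the block alone (adjusted p = 0.211, and 1.6e-04 with the block). The part of these cells in the Gzmb level was not tested.

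**Figure D4:**
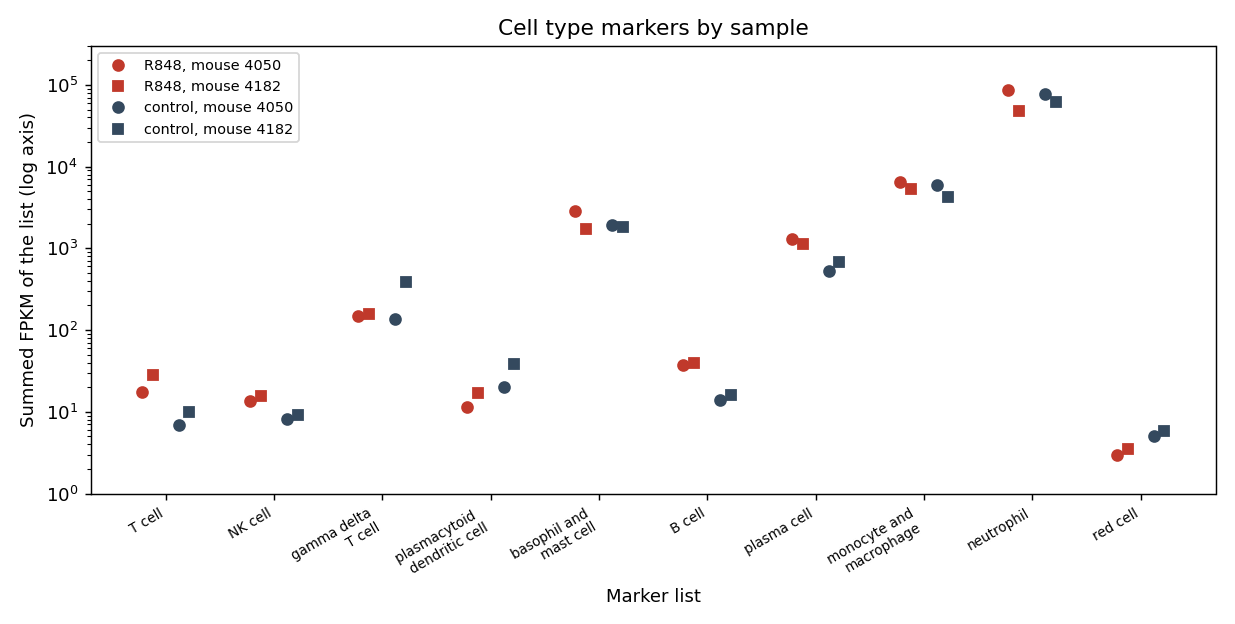
Summed FPKM of 10 cell type marker lists in each sample on a log axis, R848 in red and control in dark blue, with circles for mouse 4050 and squares for mouse 4182. The T cell, NK cell and B cell sums are higher in both R848 samples than in both controls and are low in all samples. Genes that passed the filter only through R848 add to these sums: Cd3g, Trac and Trbc1 (T cell), Il2rb (NK cell) and Cd79a and Ms4a1 (B cell). Trbc2, whose reads may be shared with Trbc1, is also in the T cell sum. The plasma cell sums are also higher in both R848 samples. Basophil, macrophage and neutrophil sums are far higher than the T cell, NK cell and B cell sums in all samples.

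The tested genes closest in pattern to the mean of the 8 tested markers, by the Euclidean distance of mean-centred log2 values over the 4 samples, were Trafd1, Raver2, Serpine2, Htra1 and Hpgds, at distances from 0.054 to 0.147. Trafd1, the nearest, was at 90.1 and 105 FPKM with R848 and at 42.4 and 50.7 FPKM in control, a log2 difference of 1.05. With 4 samples many genes can share a pattern, and no test was made of this likeness.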

How the data were processed

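RNA sequencing was done on 4 samples, R848 and control from 2 mice. Per the labels' protocols, RNA was sequenced as paired reads of 150 nucleotides, and both ribosomal depletion and a stranded mRNA kit are named. The submitters' processing notes name kallisto and mm10, with no version and no gene annotation. The values are log2 values as the authors deposited them, named log2 FPKM. Their minimum is 0, and undoing log2(value + 1) gave sums of 950530 to 962001 per sample, as TPM would. They hold no counts, so depth is unknown and no counting interval is given.

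Of 28192 rows, 27 named as dates and 91 repeated symbols (the row of higher mean stayed) were dropped. Genes averaging 1 FPKM or more were tested on log2(FPKM + 1) with limma 3.58.1 in R 4.3.3 (trended prior, two-sided, Benjamini-Hochberg over 12612 genes, threshold 0.05). The primary fit left 2 residual degrees of freedom and was also tested on simulated data. The fit blocked by mouse left 1, so its adjusted p-values rest still more on the spread shared across genes. The primary fit has no block. Samples with the same number come from the same mouse, per the labels, and their deviations from the group means correlated at 0.289, so a fit blocked by mouse is given where it changes a call. Alternatives were a pseudocount of 0.1, no filter (genes at 0 in all samples left out) or one at 5 FPKM, the block, quantile normalization or median log ratio scaling with and without it, an untrended prior and leaving out each sample. The genes, lists and tests were chosen with earlier results of these data known. Named genes are all members and, per list, up to 4 called genes or else the 2 with the smallest p. Replicates are separate mice, 2 per group, and the treatments of a mouse share its cells. 1 marker of the B cell list is not reported here and was left out of its sum. Figures used matplotlib 3.10.9.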

Additional observations from a re-analysis of the deposited data

How the results depend on the processing

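With 2 samples per group the adjusted p-values rest largely on a spread shared across genes, and the number of calls moved with the setting. Limma without the block called 233 of 12612 genes and 3 of the 8 tested markers (Cd3g, Trac, Trbc1). These 3 passed the filter only through their R848 values and so had to differ. With the replicate block (mouse) it called 669 genes and 5 markers, after quantile normalization 90 and 0, after median log ratio scaling 106 and 0, with the block and quantile normalization 449 and 4, and with the block and median log ratio scaling 549 and 4. A pseudocount of 0.1 left 1 marker (Trbc1), and a filter at 5 FPKM tested 2 markers and called 0. With no filter 0 genes and 0 markers passed by limma. In that fit 1880 of 21710 genes and 6 of 10 markers had an unadjusted p under 0.05. Leaving out 1 sample gave 56 to 395 genes and 0 to 3 markers, and in these fits the lone sample is assumed to vary like the others. The cause of these moves was not tested, except that fewer markers could be tested at 5 FPKM. Leaving out 1 sample turned the log2 difference of 4 genes. Gzmb then ranged from -0.47 to 0.89, Nkg7 from -0.041 to 0.63, Gzmm from -0.10 to 0.39 and Batf3 from -0.39 to 0.62. The low value came without the control of mouse 4050 for Gzmb and Nkg7, without the R848 sample of mouse 4050 for Gzmm and without the control of mouse 4182 for Batf3. None of these 4 genes had passed in any setting. Cd3g, Trac, Trbc1, Il2rb, Xcl1 and Klrd1 stayed higher with R848 in every setting in which they were tested. All of these but Klrd1 passed the filter only through their R848 values and so had to differ in the filtered fits. Their steady direction there only describes the values.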
